A study of Homo sapiens with 8 samples.

Results

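Ribosome biogenesis was followed through 50 genes for RNA polymerase I and for nucleolar proteins that process rRNA and assemble the ribosomal subunits. The genes were taken by symbol from a set list that was drawn up with earlier results of these data known. All 50 were found among the 38148 genes of the mRNA-seq table. HT29, a human colorectal cancer cell line, had been left untreated or treated with 1 μM selumetinib, an inhibitor of the kinase MEK that activates ERK, for 24 h. After glyoxal fixation, both cultures were stained for the cyclin that CCNB1 encodes, which builds up in G2, and flow sorted by that stain before poly(A) RNA was sequenced. The 4 groups, with 2 libraries each, were thus CCNB1-negative and CCNB1-positive cells without the inhibitor and CCNB1-negative and CCNB1-positive cells with it, all of this 1 cell line.

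The labels of all 8 libraries contradict themselves: each title names the other treatment and the other fraction than the description does, and the labelled medium goes with the title. Groups here follow the descriptions, which match the column names of the table. If the titles were right, the response of each fraction would be the response given here for the other fraction with its sign changed, each difference between fractions would be the one given for the other treatment with its sign changed, and the difference between the responses would stay as it is. CCNB1 mRNA, as the log2 of reads scaled to the largest library, stood at 11.66 and 12.01 in the libraries described as untreated CCNB1-negative, 13.79 and 14.05 in untreated CCNB1-positive, 7.92 and 7.22 in selumetinib-treated CCNB1-negative and 12.76 and 12.53 in selumetinib-treated CCNB1-positive. By the titles it would be lower in the fraction sorted as positive in both treatments. DUSP6, a feedback phosphatase for ERK, changed by −1.75 (log2) in the negative and −1.06 in the positive fraction by the descriptions, and 11 of 12 ERK target genes were lower in both.

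Recovered reads on genes ranged from 12696860 to 23916160 per library. Mitochondrial transcripts took 4.44% to 7.80% of reads in untreated and 11.9% to 14.8% in treated libraries, and MALAT1, a nuclear noncoding RNA, took 0.303% to 0.386% and 2.01% to 4.42%. All 9 colon epithelium markers had reads in each library, while the summed level was at most 8.01 RPM (reads scaled to library size) for 5 fibroblast and at most 1.65 RPM for 3 endothelium markers. A list of 4 leukocyte markers summed to 344 to 1081 RPM, and LYZ, the only one of them to pass the filter on low values, changed by −1.35 with selumetinib in CCNB1-negative and by −0.73 in CCNB1-positive cells, and its part in the results was not tested. Of the 50 genes, 19 overlap a gene with over 10% of their own reads, and the strand setting of the counting is not stated in the sources used here. The labels do not say that replicates came from separate cultures, so p-values measure only the spread between these libraries. In bulk libraries, fewer cells of a type and less RNA per cell cannot be told apart.

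Ribosomes are built mostly in the nucleolus. RNA polymerase I transcribes one long precursor rRNA, small nucleolar ribonucleoproteins (snoRNPs) modify it, the small subunit processome cuts and folds the part that becomes the 40S subunit, and a separate set of factors assembles the 60S subunit. Growth signals raise this output, and MYC, a transcription factor that acts downstream of ERK in many cells, is known to bind E-boxes in many of these genes.

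The promoters are shown because the same 6 letters recur in them close to the start of transcription. RefSeq promoter windows on GRCh38.p14, from 250 bases before to 50 bases from the start on, matched 41 of the 50 genes with 49 windows, and 8 genes had more than 1. BOP1, DCAF13, DDX18, NOLC1, NOP58, RRP12, RRP1B, RRS1 and URB2 had none. The E-box letters CACGTG, which read the same on both strands, were in 19 of the 49 windows (38.8%), against 9.42% of 14434 windows of tested genes and 7.26% of all 35116 windows. The 8 sites below belong to the genes with the largest falls in CCNB1-negative cells among those with an E-box that had all 30 bases inside the window. Each is on the gene's own strand with the E-box in capitals.
RRP9: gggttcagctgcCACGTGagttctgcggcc
MRTO4: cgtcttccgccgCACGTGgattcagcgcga
EBNA1BP2: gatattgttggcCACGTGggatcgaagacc
NOC3L: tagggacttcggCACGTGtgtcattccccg
NOP14: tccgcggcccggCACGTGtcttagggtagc
FBL: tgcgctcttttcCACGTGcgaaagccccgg
DDX21: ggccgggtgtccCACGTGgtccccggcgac
GNL3: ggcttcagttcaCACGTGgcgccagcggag
With the first transcribed base as base 0, these E-boxes began at base −5 in RRP9 (chr3:51941892-51941921, minus strand), 14 in MRTO4 (chr1:19251807-19251836, plus strand), 19 in NOC3L (chr10:94362903-94362932, minus strand) and 15 in NOP14 (chr4:2963374-2963403, minus strand). They began at base 6 in FBL (chr19:39846356-39846385, minus strand), −31 in DDX21 (chr10:68956604-68956633, plus strand) and 6 in GNL3 (chr3:52686026-52686055, plus strand). EBNA1BP2 (chr1:43172790-43172819, minus strand) had its printed site at base −237, and a second window for another start held one at base 42.

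Across the windows the E-boxes gathered just after the start. In bases 0 to 49, the beginning of the transcript, an E-box began in 13 windows of these genes (26.5%), against 1.09% of the windows of tested genes, and none of the bins from −200 to −51 held one. The core letters bound by ETS factors, which ERK is known to act on, CCGGAAG on either strand, were in 20 of 49 windows (40.8%), against 17.2% of the windows of tested genes. They were most frequent in bases −50 to −1, with 11 windows (22.4%, against 7.16%). By gene, 18 held an E-box, 18 an ETS core, 8 both and 13 neither. A match of letters is a description of the sequence and does not show that a factor binds.

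**Figure D1:**
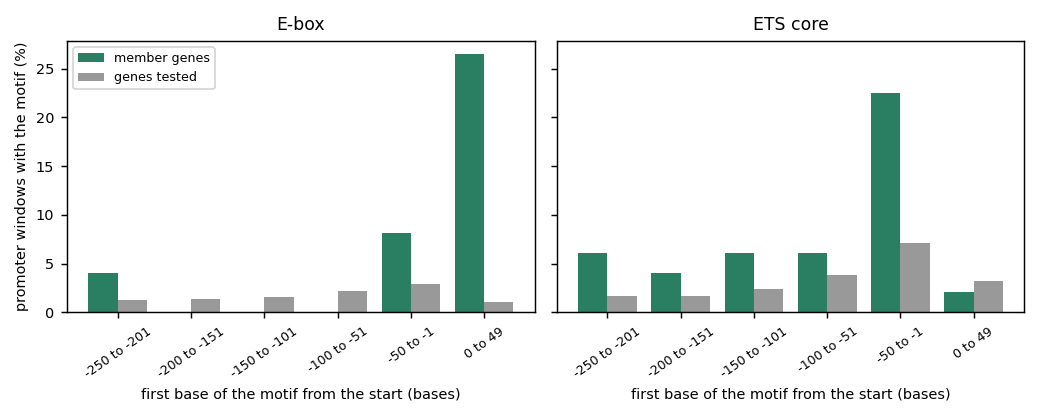
Share of promoter windows (y axis, percent) in which an E-box (left) or an ETS core (right) begins in each bin of 50 bases (x axis, bases from the start of transcription), for the ribosome biogenesis genes (green) and all tested genes (grey). The tallest green bars stand at bases 0 to 49 for the E-box (26.5%) and at −50 to −1 for the ETS core (22.4%).

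In selumetinib-treated cells every one of the 50 genes took a smaller share of reads, in both fractions. Together these genes took 1.06% and 1.18% of the reads of untreated CCNB1-negative cells, 1.17% and 1.23% in untreated CCNB1-positive, 0.293% and 0.285% in selumetinib-treated CCNB1-negative and 0.358% and 0.434% in selumetinib-treated CCNB1-positive. The 4 treated libraries lay below the 4 untreated libraries for all 50 genes, a separation that 31.4% of all tested genes showed.

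In the fit with limma across 14219 genes, all 50 were lower after selumetinib in CCNB1-negative cells at an adjusted p under 0.05, where 35.8% of all genes were called lower. Their median log2 fold change was −1.89 against 0.050 for all genes, with quartiles of −2.28 and −1.38. The fall was past 2-fold for 49 of them and past 4-fold for 22, against 2993 and 780 of the 14219 genes. All 50 were likewise called lower in CCNB1-positive cells, against 27.3% of all genes, with a median of −1.55 against 0.17, and 48 were past 2-fold and 8 past 4-fold, against 1407 and 102 of all genes. The largest adjusted p of any of them by limma was 0.00045 for the response of CCNB1-negative and 0.00084 for that of CCNB1-positive cells. Rescaling the libraries to reads on nuclear genes without MALAT1 moved the median of all genes to 0.36 and 0.42 and that of the 50 genes to −1.57 and −1.30, as such a rescaling shifts every gene alike, and all 50 were still called, where 27.1% and 18.4% of all genes were then called lower. Mitochondrial and MALAT1 shares were higher in the treated libraries, as given above, and beyond this rescaling their part in the result was not tested. S phase transcripts were lower in treated CCNB1-negative libraries, and their part was not tested. The 6 S phase genes summed to 1350 and 1448 RPM in untreated and 117 and 104 RPM in treated CCNB1-negative libraries.

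**Figure D2:**
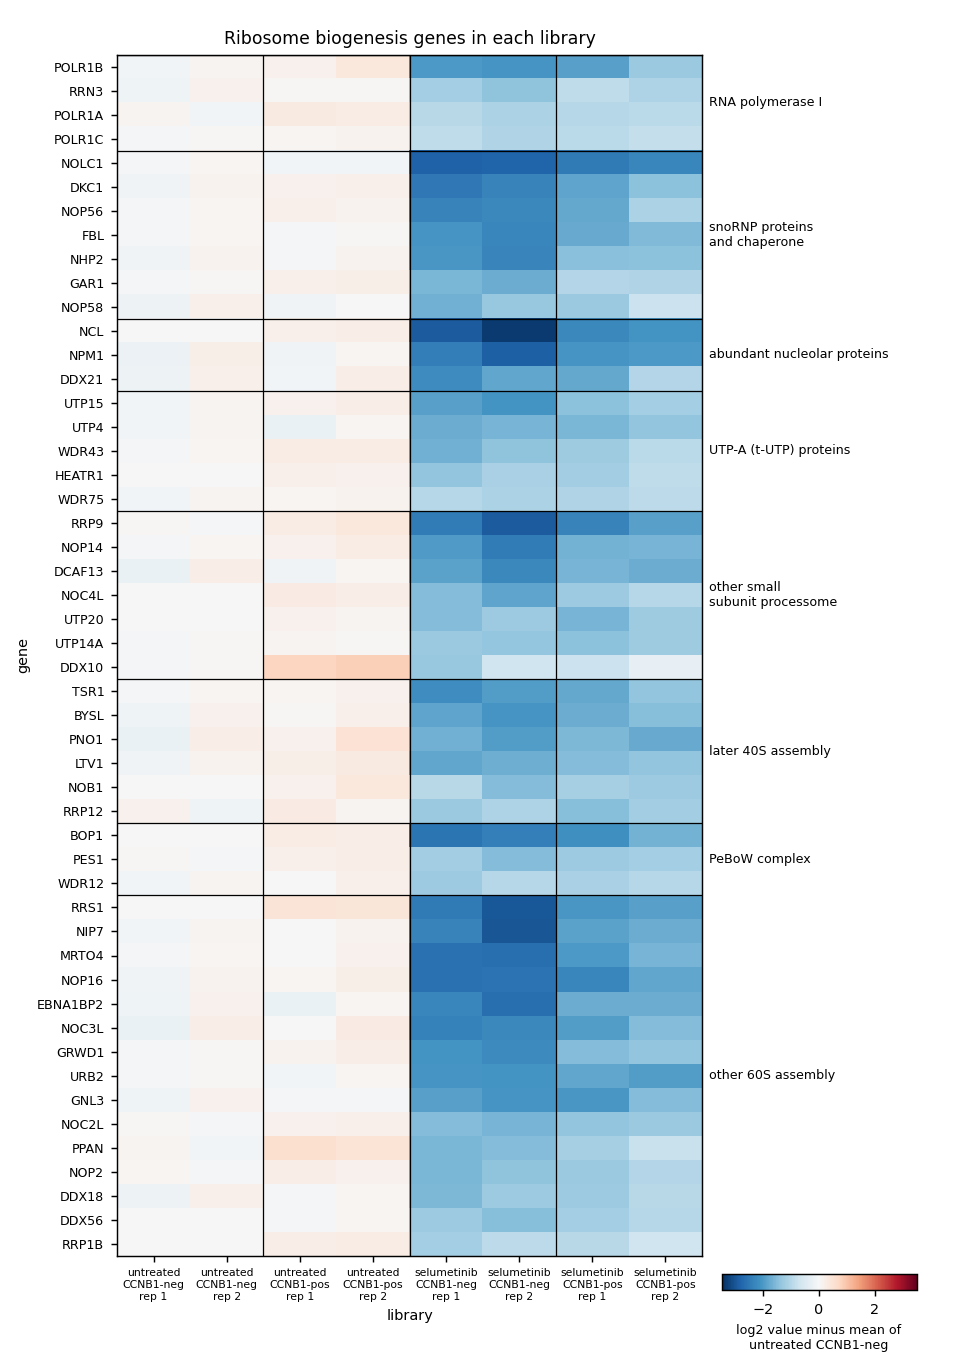
Log2 value of each of the 50 genes (rows, grouped by role) in each of the 8 libraries (columns), as the difference from the mean of the untreated CCNB1-negative libraries (colour, log2 units). The 4 columns of treated cells are blue in all rows, and the NCL row in selumetinib-treated CCNB1-negative cells is the darkest.

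Log2 values are given in a fixed order of groups, untreated before treated, within a treatment CCNB1-negative before CCNB1-positive, and within a group replicate 1 before replicate 2. Changes are log2 fold changes ± standard error (n = 2 libraries per group) of treated against untreated cells, first for the negative and then for the positive fraction.

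RNA polymerase I itself had the smallest median fall of the roles. It was −1.17 over its 4 genes in the negative and −1.15 in the positive fraction. POLR1A, the largest subunit, stood at 10.98 and 10.81, 11.22 and 11.16, 9.94 and 9.79, and 9.89 and 9.96. POLR1B, the second largest and part of the catalytic centre, stood at 10.25 and 10.47, 10.52 and 10.72, 8.36 and 8.29, and 8.47 and 9.05. No treated library of either gene reached an untreated one, and the distance was larger for POLR1B, which changed by −2.04 ± 0.19 and −1.86 ± 0.19, than for POLR1A, with −1.04 ± 0.14 and −1.27 ± 0.14. POLR1C (ENSG00000171453, chr6:43509702-43562419), a subunit shared with RNA polymerase III, had values of 10.87 and 10.96, 10.97 and 11.04, 10.03 and 9.86, and 9.98 and 10.09. It had the smallest fall of all 50 in CCNB1-negative cells, −0.97 ± 0.14, and the same in CCNB1-positive cells, −0.97 ± 0.14, with little spread between replicates. RRN3, which brings the polymerase to the rDNA promoter, stood at 10.59 and 10.87, 10.77 and 10.78, 9.54 and 9.32, and 9.83 and 9.65, a change of −1.31 ± 0.16 and −1.04 ± 0.16. POLR1C and RRN3 overlap genes on the opposite strand with up to 165% and 163% of their own reads, and without the strand setting their values are uncertain to that extent.

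The 7 snoRNP genes comprise the box C/D core proteins FBL (the methyltransferase fibrillarin), NOP56 and NOP58, the H/ACA proteins DKC1 (the pseudouridine synthase dyskerin), NHP2 and GAR1, and NOLC1, a chaperone of both classes. Their median was −2.17 and −1.60, and 5 of them fell past 4-fold in CCNB1-negative cells. NOLC1 (chr10:102152176-102163871) stood at 13.01 and 13.13, 12.99 and 12.99, 10.25 and 10.26, and 10.59 and 10.79, with replicates close in each group. It changed by −2.82 ± 0.14 and −2.29 ± 0.14, that is 7.05-fold and 4.90-fold lower. NOP58 stood at 13.10 and 13.43, 13.15 and 13.28, 11.59 and 11.94, and 11.98 and 12.53, which made −1.50 ± 0.20 and −0.96 ± 0.20, the smallest fall of all 50 genes in CCNB1-positive cells. NOP56, the partner of NOP58 in the same particle, changed by −2.30 ± 0.19 and −1.60 ± 0.19, and FBL by −2.17 ± 0.17 and −1.65 ± 0.17. In the H/ACA class, DKC1 changed by −2.41 ± 0.17 and −1.79 ± 0.17 and GAR1 by −1.67 ± 0.14 and −1.24 ± 0.14.

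Among the abundant nucleolar proteins the falls were largest, with a median of −2.64 and −2.001 over 3 genes. NCL (nucleolin, ENSG00000115053, chr2:231453531-231483641) binds nascent rRNA, and stood at 15.33 and 15.34, 15.51 and 15.57, 12.41 and 11.99, and 13.08 and 13.23. Its fall was the largest of all 50 genes in CCNB1-negative cells, −3.13 ± 0.19 or 8.78-fold, and was −2.38 ± 0.19 or 5.22-fold in CCNB1-positive cells. NPM1, the histone chaperone nucleophosmin of the outer nucleolus, stood at 14.92 and 15.34, 15.00 and 15.21, 12.71 and 12.27, and 13.07 and 13.14, changing by −2.64 ± 0.20 and −2.001 ± 0.20. DDX21, an RNA helicase, stood at 13.27 and 13.60, 13.34 and 13.67, 11.22 and 11.62, and 11.64 and 12.39, and changed by −2.01 ± 0.23 and −1.49 ± 0.23. Its replicates lay farthest apart in the selumetinib-treated CCNB1-positive group.

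The UTP-A proteins join the precursor rRNA first and link its transcription to processing. Their median was −1.55 and −1.36, none fell past 4-fold, and the changes ran from −1.99 to −1.05 in CCNB1-negative cells. UTP15 had values of 9.67 and 9.83, 9.89 and 9.98, 7.86 and 7.67, and 8.32 and 8.57, for a change of −1.99 ± 0.17 and −1.49 ± 0.17. WDR75 had values of 11.23 and 11.45, 11.40 and 11.46, 10.35 and 10.23, and 10.29 and 10.41, and its change was −1.05 ± 0.14 and −1.08 ± 0.14. Between these, UTP4 went from 11.87 and 12.04 and 11.72 and 12.01 in the untreated groups to 10.22 and 10.33 and 10.36 and 10.57 in the treated ones, by −1.68 ± 0.15 and −1.40 ± 0.15. HEATR1, the largest of these proteins, went from 11.20 and 11.24 and 11.41 and 11.38 to 9.85 and 10.10 and 10.02 and 10.32, by −1.25 ± 0.15 and −1.23 ± 0.15. For WDR43 the untreated values were 11.17 and 11.32 and 11.49 and 11.52 and the treated values 9.56 and 9.83 and 9.995 and 10.30, a change of −1.55 ± 0.16 and −1.36 ± 0.16. UTP4, UTP15 and HEATR1 overlap genes with up to 76.8%, 35.1% and 34.0% of their reads.

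The other 7 processome genes had a median of −1.69 and −1.55, with the ends far apart. RRP9 (chr3:51933429-51941904), a protein of the U3 snoRNP that guides the first cuts, stood at 11.76 and 11.68, 11.97 and 12.10, 9.28 and 8.82, and 9.38 and 9.83. It changed by −2.67 ± 0.18 and −2.43 ± 0.18, the largest fall of all 50 genes in CCNB1-positive cells. DDX10 (chr11:108665069-108940927), an RNA helicase, stood at 11.15 and 11.26, 11.97 and 12.03, 9.87 and 10.51, and 10.44 and 10.92, a change of −1.01 ± 0.20 and −1.32 ± 0.20. Its untreated CCNB1-positive libraries lay above the other 6 libraries, and its treated CCNB1-negative replicates were far apart. NOP14 and DCAF13 changed by −2.22 ± 0.16 and −2.06 ± 0.18 in CCNB1-negative cells, and UTP20, NOC4L and UTP14A by −1.39 ± 0.16, −1.69 ± 0.16 and −1.33 ± 0.14. NOP14 and DCAF13 overlap genes with up to 12.5% and 30.6% of their reads.

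Genes of later 40S assembly had a median of −1.79 and −1.71. TSR1, a GTPase-like protein that holds the immature 40S subunit, stood at 11.15 and 11.30, 11.30 and 11.38, 9.06 and 9.27, and 9.43 and 9.84, and changed by −2.06 ± 0.16 and −1.71 ± 0.16. RRP12, an export factor, stood at 11.77 and 11.46, 11.90 and 11.72, 10.32 and 10.52, and 10.12 and 10.41, and changed by −1.19 ± 0.16 and −1.54 ± 0.16. The order of the fractions thus differed between these genes, with a difference between the responses of −0.35 for RRP12 and 0.35 for TSR1, both with an adjusted p of 0.41 by limma. NOB1, the nuclease that makes the final cut of the small rRNA, changed by −1.23 ± 0.18 and −1.48 ± 0.18, and its partner PNO1 by −1.82 ± 0.19 and −2.004 ± 0.19. PNO1 overlaps an opposite-strand gene with up to 221% of its reads and TSR1 one with up to 38.6%, so these values are uncertain in the same way.

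For the 60S subunit, the PeBoW complex (PES1, BOP1 and WDR12) had a median of −1.36 and −1.43, and the estimates for its subunits were far apart. BOP1, the scaffold, stood at 11.94 and 11.92, 12.21 and 12.17, 9.36 and 9.54, and 9.78 and 10.28, a change of −2.48 ± 0.17 and −2.16 ± 0.17. PES1 stood at 12.12 and 12.06, 12.27 and 12.31, 10.88 and 10.58, and 10.81 and 10.90, a change of −1.36 ± 0.15 and −1.43 ± 0.15. WDR12 stood at 10.97 and 11.14, 11.05 and 11.24, 9.80 and 10.05, and 9.92 and 10.07, a change of −1.13 ± 0.15 and −1.15 ± 0.15. Proteins of 1 complex thus had transcripts that fell between 2.19-fold and 5.59-fold in the same CCNB1-negative cells.

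The remaining 15 genes of 60S assembly had a median of −2.09 and −1.65, and 8 of them fell past 4-fold in CCNB1-negative cells. RRS1 (chr8:66429014-66430733), which helps the 5S rRNA particle join the subunit, stood at 10.82 and 10.87, 11.30 and 11.26, 8.36 and 7.89, and 8.82 and 8.94, and changed by −2.72 ± 0.17 and −2.40 ± 0.17. NIP7, a processing factor of the large subunit, stood at 10.68 and 10.88, 10.79 and 10.91, 8.44 and 7.77, and 8.91 and 9.03, and changed by −2.67 ± 0.20 and −1.88 ± 0.20. The replicates of both genes were farthest apart in selumetinib-treated CCNB1-negative cells. RRS1 and NIP7 overlap genes with up to 59.7% and 141% of their reads. MRTO4 and NOP16 fell by nearly as much, with −2.64 ± 0.16 and −2.60 ± 0.17 in CCNB1-negative cells. RRP1B was at the other end, with 10.18 and 10.23, 10.43 and 10.45, 9.01 and 9.29, and 9.22 and 9.52, and changed by −1.06 ± 0.16 and −1.07 ± 0.16. PPAN, a nucleolar homologue of Drosophila Peter pan, stood at 11.11 and 10.90, 11.57 and 11.48, 9.41 and 9.49, and 9.84 and 10.22, and changed by −1.55 ± 0.16 and −1.49 ± 0.16. A readthrough gene on the same strand, PPAN-P2RY11, shares its exons, and a gene that overlaps PPAN had up to 106% of its reads, so this value is uncertain.

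**Figure D3:**
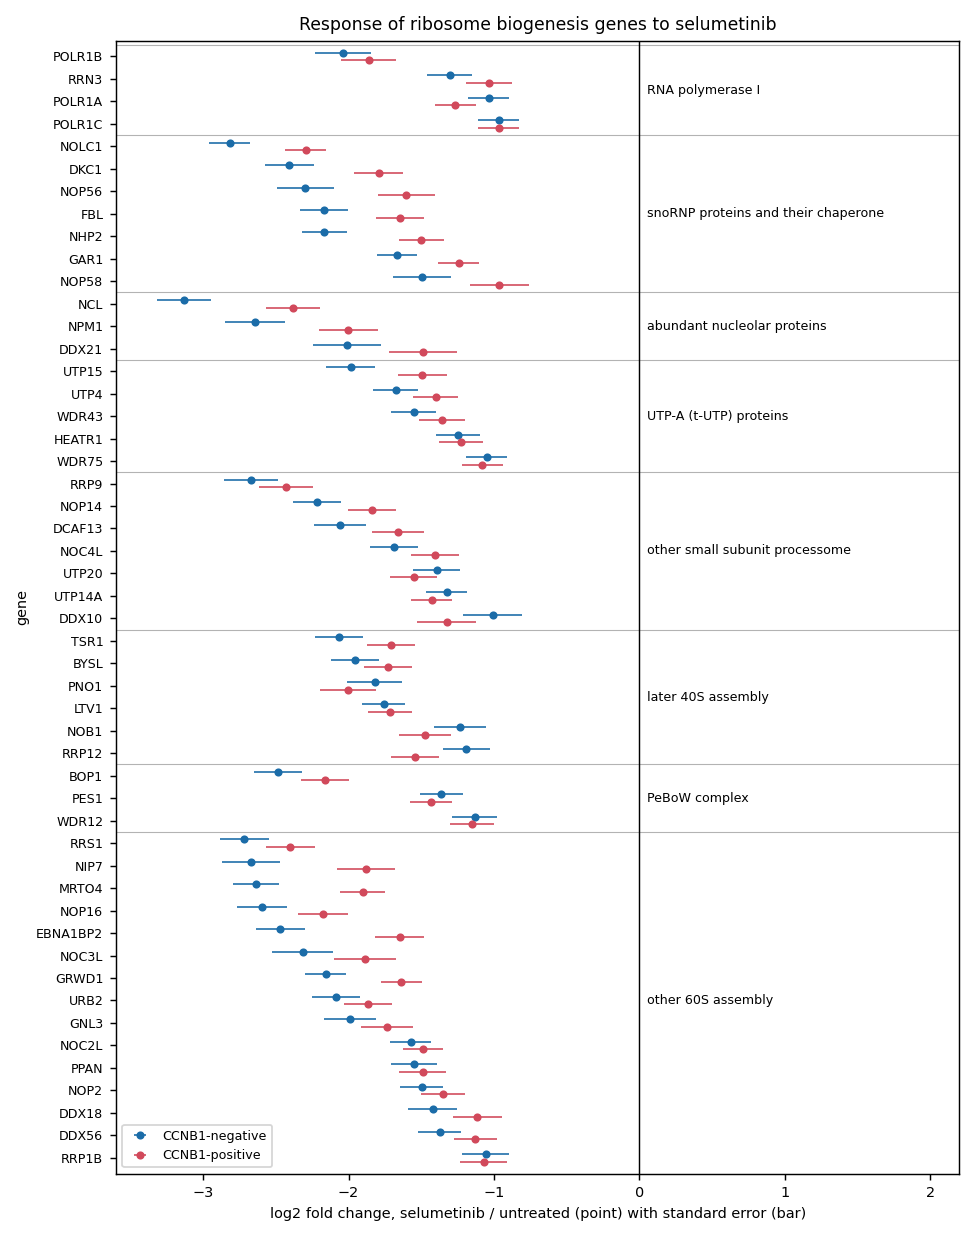
Log2 fold change of selumetinib-treated against untreated cells (x axis) for each of the 50 genes (y axis, grouped by role), in CCNB1-negative (blue) and CCNB1-positive cells (red), with bars of 1 standard error and n = 2 libraries per group. Changes run from −3.13 for NCL to −0.97 for POLR1C in CCNB1-negative cells, and no point lies at or above 0.

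The genes kept a similar order in both fractions. Across the 50 genes, which are not independent replicates, the responses in the fractions had a Spearman rho of 0.87, and these responses share no library. Levels differed widely between the genes when taken per length of exon. FBL had 417 and 449 reads per kb, scaled to library size, in untreated CCNB1-negative cells, NCL 194 and 193 and NPM1 157 and 208. POLR1B had 5.70 and 6.53, and POLR1A 4.32 and 3.80, the lowest of the 50 by this measure. The length counted every annotated exon of a gene, 19694 bases for POLR1A, so the ranking depends on the annotation. By reads alone, POLR1A had 1869 and 1430 in these libraries, above NOC3L with 610 and 731. Genes with a higher level per kb in untreated cells tended to fall more, with a Spearman rho of −0.52 for the response of CCNB1-negative and −0.32 for that of CCNB1-positive cells across the 50 genes. Level and response share the untreated libraries, and the levels rest on the same exon lengths. The promoter letters shown above went with small differences in response: the median change in CCNB1-negative cells was −1.96 over the 19 windows with an E-box and −1.84 over the 30 without, and −2.02 over the 20 windows with an ETS core and −1.82 over the 29 without. These medians count windows, so a gene with more than 1 window enters more than once. DDX21, GNL3 and GAR1 enter both E-box groups.

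The rest of the machinery was mostly lower too. Counts in these lists are of genes called by limma. In CCNB1-negative cells 35.8% of all genes were called lower and 38.2% higher, with a median of 0.050. In CCNB1-positive cells these were 27.3% and 38.0%, with a median of 0.17. Of 11 other genes of the RNA polymerase I machinery, 9 were called lower and 1 higher in CCNB1-negative cells (median −0.96). In CCNB1-positive cells 8 were called lower and 1 higher (median −0.82). POLR1E, a polymerase I subunit, was lowest with −2.64 in CCNB1-negative cells, and TAF1C, a subunit of the promoter selectivity factor, was highest with 1.11. Of 29 other small subunit factors tested out of 30, 28 were called lower in each fraction (medians −1.52 and −1.24). The exception, the helicase DDX52, changed by −0.20 and −0.25 and was not called. Of 38 other 60S factors, 34 and 33 were called lower and 2 higher in each fraction (medians −1.19 and −1.06). Changes ran from −2.80 for BRIX1 to 0.88 for NVL in CCNB1-negative cells.

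Genes of neighbouring pathways were also mostly lower. Among 12 subunits and factors of RNA polymerase III, 8 and 9 were called lower and 1 was called higher (medians −0.74 and −0.76). The shares of all genes called lower were 35.8% and 27.3%. Among 12 subunits of RNA polymerase II, 11 and 10 were called lower and 0 higher (medians −1.34 and −0.83). Of 12 genes of the exosome, which trims rRNA, 12 and 11 were called lower (medians −1.55 and −1.10). The lists were not tested against each other.

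**Figure D4:**
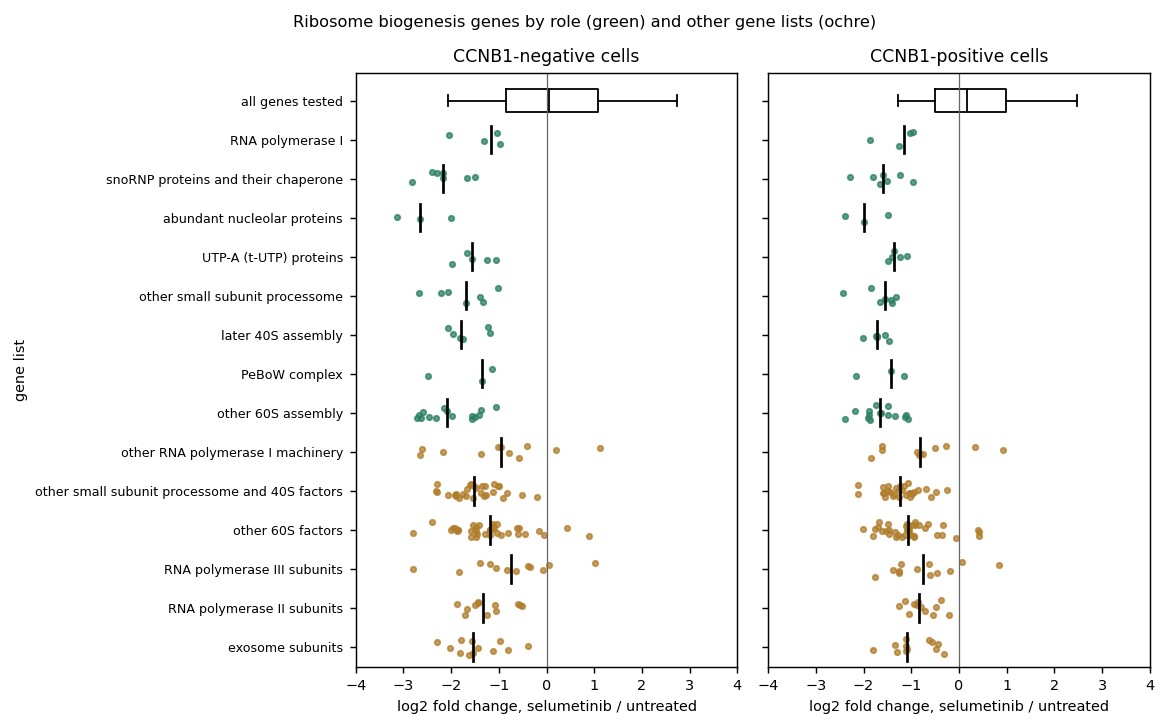
Log2 fold change of selumetinib-treated against untreated cells (x axis) in CCNB1-negative (left) and CCNB1-positive cells (right) for the 50 genes by role (green), other gene lists (ochre) and all tested genes (box between the lower and upper quartile, whiskers at the 5th and 95th percentile). Each point is a gene and each bar a median, and all green points lie below 0, while the ochre lists reach up to 1.11 for TAF1C.

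Without the inhibitor, no difference between the sorted fractions passed the test that left fractions unpaired. A few did with a block for fractions that share treatment and replicate number (against 4.75% of all genes), as given at the end. Of the 50 genes, 0 were higher and 0 lower in untreated CCNB1-positive than CCNB1-negative cells by limma, against 1.36% and 1.51% of all genes, 3 had an unadjusted p under 0.05 (3 also by limma-voom), and the median difference was 0.15 against −0.057 for all genes. Both CCNB1-positive libraries lay above both CCNB1-negative ones for 27 genes, against 16.3% of all genes, and below them for 1, against 28.0%. Without untreated CCNB1-negative replicate 1 the median difference was 0.060, against −0.059 for all genes. DDX10 had the largest difference, 0.80 ± 0.20 (adjusted p 0.052 by limma, 95% interval 0.36 to 1.23), and was the 1 gene called when libraries were centred on their median, with either pseudocount, or without any of the 4 treated libraries in turn. PPAN followed with 0.52 ± 0.16 (adjusted p 0.12 by limma). The difference for NCL was 0.21 (95% interval −0.19 to 0.61) and for POLR1A 0.29 (−0.017 to 0.59), so that differences of that size were not detectable with 2 libraries per group.

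Under selumetinib, 20 of these transcripts were called higher, as a share of reads, in CCNB1-positive than in CCNB1-negative cells. By limma, these 20 of the 50 genes were higher and 0 lower, where 13.8% of all genes were called higher and 7.87% lower, and the median difference was 0.45 against 0.024 for all genes. Both CCNB1-positive libraries lay above both CCNB1-negative ones for 35 genes (33.0% of all genes) and below them for 0 (31.0%). The values of the leading gene, NCL, were 12.41 and 11.99 against 13.08 and 13.23, a difference of 0.96 ± 0.19 or 1.94-fold (adjusted p 0.0028 by limma). NIP7 differed by 0.86 ± 0.20, NOP56 by 0.84 ± 0.19 and MRTO4, which holds the place of a stalk protein in the immature 60S subunit, by 0.81 ± 0.16, the last with values of 9.84 and 9.81 against 10.44 and 10.84.

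Most of these calls were snoRNP, abundant nucleolar or 60S genes, roles that also hold many of the 50 genes. Higher in treated CCNB1-positive cells were 6 of 7 snoRNP genes (all but NOP58), NCL and NPM1, 7 of the 15 other genes of 60S assembly (RRS1, NIP7, MRTO4, EBNA1BP2, NOP16, GRWD1 and PPAN), BOP1 of PeBoW, UTP15 of the UTP-A group, and RRP9, NOP14 and NOC4L of the processome. None of the 4 RNA polymerase I genes and none of the 6 genes of later 40S assembly was among them. Over the RNA polymerase I genes the differences ran from 0.059 for POLR1A (95% interval −0.25 to 0.36) to 0.44 for POLR1B. Over the later 40S genes they ran from −0.16 for RRP12 (−0.51 to 0.19) to 0.47 for TSR1. The highest of each role was thus near the median of 0.45 over all 50 genes. The smallest adjusted p by limma was 0.11 and 0.057 in these roles. Whether roles differed from each other was not tested. These 20 calls depended on single libraries and on the scaling: the count was 6 without selumetinib-treated CCNB1-positive replicate 2 (8.36% of all genes), 7 without selumetinib-treated CCNB1-negative replicate 2 (6.96%), and 13 with the libraries centred on their median (11.03%), rescaled to nuclear genes (10.97%) or without the filter on low values (4.66%). Without selumetinib-treated CCNB1-positive replicate 2 the median difference was 0.27, against 0.043 for all genes. The count was larger with a block for fractions that share treatment and replicate number (27.04% of all genes), as given at the end. In the treated CCNB1-positive group, 44 of the 50 genes were lower in replicate 1 than in replicate 2, by a median of 0.21.

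**Figure D5:**
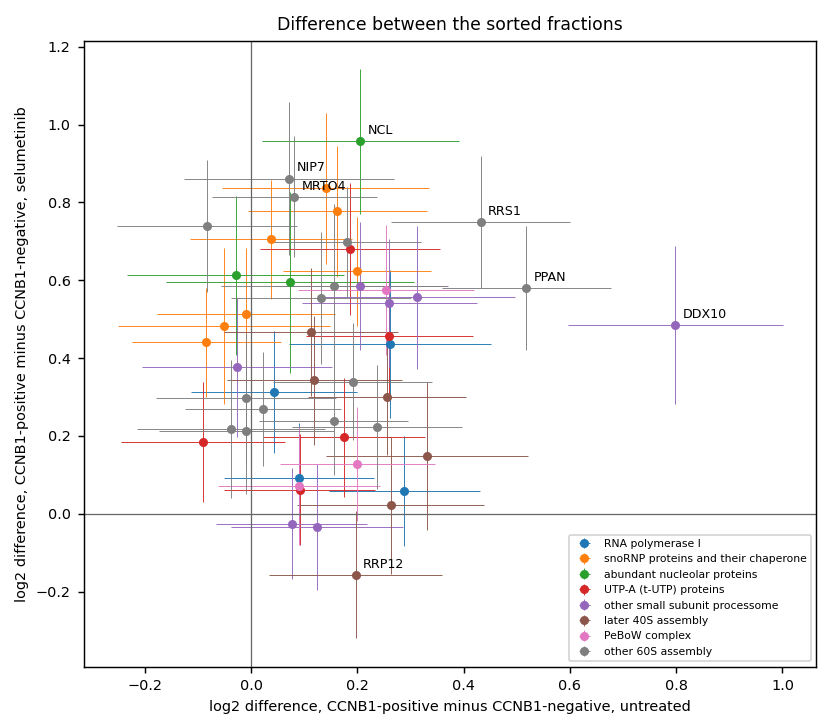
Log2 difference of CCNB1-positive minus CCNB1-negative cells without (x axis) and with selumetinib (y axis) for the 50 genes, coloured by role, with bars of 1 standard error and n = 2 libraries per group. NCL stands highest at 0.96 on the y axis and DDX10 farthest right at 0.80 on the x axis.

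Cell cycle transcripts differed between the sorted fractions. The summed level of 10 G2 and mitosis genes was 151 and 110 RPM in treated CCNB1-negative and 3342 and 3463 RPM in treated CCNB1-positive libraries, and that of 6 S phase genes was 117 and 104 RPM and 383 and 435 RPM. In untreated cells the G2 and mitosis genes summed to 1156 and 975 RPM and 4548 and 5025 RPM, and the S phase genes to 1350 and 1448 RPM and 798 and 864 RPM. Their part in the differences of the 50 genes was not tested.

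The test of the difference between the 2 responses, with the fractions left unpaired, called none of the 50 genes. A block for fractions that share treatment and replicate number did call some of them (against 19.3% of all genes), as given at the end. The fall was larger in CCNB1-negative cells for 39 genes and in CCNB1-positive cells for 11, with a median difference of 0.27 against 0.11 for all genes. Without selumetinib-treated CCNB1-positive replicate 2 it was 0.15 against 0.13. By limma 0 were called in either direction, against 4.99% and 0.345% of all genes, and 12 had an unadjusted p under 0.05 (11 by limma-voom, which also called 0). EBNA1BP2, a 60S scaffold protein, had the largest difference, 0.82 ± 0.24 (adjusted p 0.066 by limma), with a change of −2.47 ± 0.17 in the negative and −1.65 ± 0.17 in the positive fraction, from 12.25 and 12.57 to 10.12 and 9.76, and from 12.18 and 12.47 to 10.68 and 10.68. NIP7 and NCL differed by 0.79 ± 0.28 and 0.75 ± 0.26, and MRTO4 by 0.73 ± 0.22 (adjusted p 0.075 by limma). The count of genes called with a larger fall in CCNB1-negative cells was 4 without selumetinib-treated CCNB1-negative replicate 1 (10.1% of all genes), 2 without selumetinib-treated CCNB1-positive replicate 1 (3.88%) and 1 without untreated CCNB1-negative replicate 1 (4.52%), shares of the 50 genes that are near or below those of all genes. The difference was 0.00 for POLR1C (95% interval −0.43 to 0.43). Standard errors of the difference ran from 0.20 to 0.33 over the 50 genes. As even the 0.82 of EBNA1BP2 was not called, smaller differences can go undetected.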

How the data were processed

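Reads per gene of 8 poly(A) RNA libraries were analysed. Per the labels and methods, the authors used Trim Galore 0.5.0 for trimming, HISAT2 2.1.0 for alignment (GRCh38) and SeqMonk 1.47.0 for gene counts, and they deposited log2 read numbers that were brought to the depth of the deepest library by total read count. A gene with 0 reads is entered as if it had 0.9. Whole reads could be recovered, within 0.01, for 100% of the other values. Annotation release and strand setting are not given in the sources used here. The methods name another medium than the labels. Replicates were not duplicates: their counts differed by a chi-square of 15.6 to 30.2 per gene.

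The 50 genes, their roles and the other lists were chosen with earlier results of these data known. Genes averaging 1 RPM or more (14219, all 50 included, each with at least 96 reads in every library) were fitted with limma 3.58.1 in R 4.3.3, with a mean-variance trend and 1 coefficient per group, on the deposited log2 values. Benjamini-Hochberg adjustment ran over these genes, and called means an adjusted p under 0.05. The authors' test, DESeq2, was not run on the recovered reads, and limma-voom was the alternative on them. Simulated data for the CCNB1-negative response had 14825 genes, of which 197 were changed, with the same spread setting for all genes. In them 100% of 4-fold and 68.7% of 2-fold changes were recovered, and 12 of 178 calls were false. Far more genes were called in the data, 35.8% lower and 38.2% higher, so these rates need not hold for them.

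Genes given in each library are those with the largest and smallest response of each role, all in roles of 3 to 5 genes, and those with the largest fraction differences and smallest responses. EBNA1BP2, MRTO4, NOP56 and others given by fold change were chosen after their values were seen. Exon lengths were the union of all annotated exons of a gene in GENCODE release 44. Of the 50 genes, 23 overlap a gene on the opposite strand and 8 one on the same strand. Summaries were made in Python 3.11.15 (pandas 2.3.3, numpy 2.4.6) and figures with matplotlib 3.10.9. Recovered reads carry no molecular identifiers, so their number bounds counting error only. The alternatives were other filters, scalings, pseudocounts, blocks, a stricter p, limma-voom, the groups compared alone, and each library left out.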

Additional observations from a re-analysis of the deposited data

How the results depend on the processing

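With 2 libraries per group, small differences between fractions cannot be resolved, and overlapping genes limit single values. All 50 genes stayed lower in both fractions under each alternative run, and the median of the 50 genes kept its direction in every comparison. Signs of single differences that were not called were not followed. The median response of CCNB1-negative cells was −1.70 with quantile normalization, −1.57 scaled to nuclear genes without MALAT1 and −1.74 with limma-voom, and −2.06 to −1.73 without 1 library. In CCNB1-positive cells it was −1.41 with quantile normalization, −1.68 with median centring, −1.30 scaled to nuclear genes and −1.45 with limma-voom, and −1.68 to −1.46 without 1 library. Median centring and nuclear scaling shift every gene of a library alike. As the distance from the median of all genes, −1.94 and −1.71 as reported, the medians were −1.63 and −1.33 with quantile normalization. Between untreated fractions, 1 gene was higher with median centring, a pseudocount of 0.1 RPM or 1 RPM, or only the groups compared, and 0 to 1 without 1 library, where the median was 0.060 to 0.20. Between treated fractions, 13 were higher with no filter, median centring or nuclear scaling and 10 at an adjusted p under 0.01, and 6 to 20 without 1 library. The median was 0.35 with median centring and 0.27 to 0.60 without 1 library. For the difference of responses, quantile normalization called 1 gene, leaving out 1 library 0 to 4, and the median was 0.13 with median centring and 0.15 to 0.39 without 1 library. The cause was not tested.

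The labels give the groups the same replicate numbers but do not say what a number marks. Deviations of samples with the same number correlated at 0.35 between untreated fractions and 0.43 between treated fractions, and from −0.09 to 0.08 otherwise. With the replicate number as a block, 1 gene was higher between untreated fractions and 1 in the difference of responses. With a block for fractions that share treatment and number, 3 were higher between untreated fractions (4.75% of all genes), 35 between treated fractions (27.04%) and 15 in the difference of responses (19.3%), the last of which called 0 without the block. Of the genes given in each library, calls between treated fractions were lost in 52 combinations of gene and alternative, gained in 19 and as before in 429.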
